A study of Homo sapiens with 12 samples.

Results

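The comparison described here set MDA-MB-231 1833 breast cancer cells carrying an inducible Tet1 construct against control cells of the same line, across all genes of the array. It used 5 of the 12 deposited array columns, the 2 independent columns labelled as expressing Tet1 and the 3 labelled control, and all 19460 probe sets that carry 1 gene symbol, which stand for 18417 genes. The deposited column for Tet1 replicate 3 equals the mean of replicates 1 and 2 at all 33297 probe sets and was left out. The same holds for HOXA9 replicate 3. The series also holds 3 columns of cells with an shRNA against HMGA2 and 2 independent columns of cells expressing HOXA9, which brings the independent arrays to 10.

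MDA-MB-231 is an established, highly metastatic triple-negative breast cancer line, and 1833 is a subline of it selected for growth in bone. All cells grew in DMEM with serum, penicillin and streptomycin. The control cells carried no construct that the labels name. The Tet1 cells were transduced with 2 lentiviral vectors, pLVX-TRE3G-Flag-Tet1, which holds Tet1 behind a tetracycline-responsive promoter, and pCMV-Tet3G, which supplies the Tet-On 3G regulator. They were selected in puromycin and G418 and grown in serum approved for tetracycline systems, and the labels call Tet1 induced without naming the inducer or its duration. The HOXA9 cells were made in the same way with pLVX-TRE3G-HOXA9. The labels name the source of the control arrays 1833 cells and that of the Tet1 and HOXA9 arrays 1834 cells, although every title says 1833. The replicates are called biological, but nothing says that they came from separate cultures, so the p-values measure the spread between these arrays, which may be technical.

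TET1 is an enzyme that oxidises 5-methylcytosine in DNA, the first step of active demethylation, and TET2 and TET3 are its relatives. DNMT1 copies methylation marks after replication, with UHRF1 as its partner, and DNMT3A and DNMT3B set new ones. TET1 has been studied in breast cancer as a gene that is repressed in invasive cells, and HOXA9 as a gene that it can activate. HMGA2 is a chromatin protein that promotes invasion and is a target of let-7 microRNAs.

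RNA was measured on Affymetrix Human Gene 1.0 ST arrays, and every level below is a deposited log2 intensity, so that a difference of 1 is 2-fold. The control and Tet1 arrays belong to different array sets. The control and shHMGA2 arrays had upper and lower quartiles of 9.192 to 9.244 and 5.748 to 5.759, while the Tet1 and HOXA9 arrays had upper quartiles of 9.22 to 9.291 and lower quartiles of 6.224 to 6.252. Over all probe sets the control arrays correlated with each other at 0.9964 to 0.9971 and the Tet1 arrays at 0.9972, Tet1 with HOXA9 arrays at 0.993 to 0.9967, and Tet1 with control arrays at 0.9537 to 0.9602. The array set, the name of the cell source, the serum, the puromycin and G418 selection and the Tet-On regulator all change between the same groups, so their parts in any difference and the part of Tet1 cannot be told apart. The HOXA9 arrays share these features with the Tet1 arrays. Their values are given beside many but not all results, for lists as the median HOXA9 minus control difference. Over all genes that median was 0.24. A result without a HOXA9 value is not thereby particular to the Tet1 arrays. Both comparisons against control use the same 3 control arrays.

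Of 18417 genes, 9927 (53.9%) were higher and 4270 (23.2%) lower in the Tet1 arrays at an adjusted p under 0.05 in limma's test, 77.1% in all. The split depends on how the arrays are scaled. After joint quantile normalization of all 10 arrays, 6001 (32.6%) were higher and 6135 (33.3%) lower, 65.9% in all. With equal array medians, 4037 (21.9%) were higher and 9472 (51.4%) lower, 73.4% in all. The median gene differed by 0.25 in the deposited values, 0.00 after joint quantile normalization and -0.22 with equal medians. The deposited difference also followed the level of a gene: its median was 0.65 among genes around a level of 6.62 and -0.20 among those around 10.22. In the 341 olfactory receptor genes, with a low median control level of 5.43, 270 were called higher and 13 lower in the deposited values. Their median difference of 0.49 fell to 0.11 after joint quantile normalization.

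**Figure D1:**
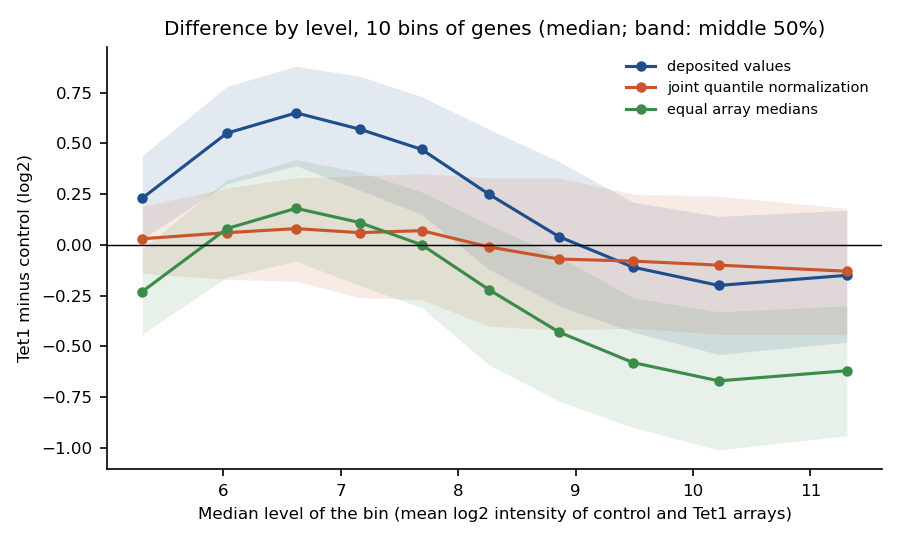
Difference between Tet1 and control arrays (log2, y axis) for 10 bins of genes ordered by level (x axis, mean log2 intensity of the control and Tet1 arrays); points are bin medians, bands the middle 50% of genes, and colours the 3 scalings. In the deposited values the bin median runs from 0.65 at a level of 6.62 to -0.20 at 10.22, while after joint quantile normalization every bin median lies between 0.08 and -0.13.

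For these reasons the words rose and fell are kept below for genes called in the same direction in all 3 scalings. There were 3693 such genes higher (20.1%) and 3951 lower (21.5%) in the Tet1 arrays, 41.5% in all, and these shares are the background for the counts within each gene group. At least 2-fold in all 3 scalings, 248 genes were higher (1.35%) and 379 lower (2.06%), 3.4% in all. In the deposited values both Tet1 arrays lay above all control arrays in 58.5% of all genes and below them in 27.2%, 85.7% in all. A value under 6.22, the 30th percentile of all values, is called dim. In a bulk extract, a lower level in every cell and fewer cells with that level cannot be told apart.

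Markers listed for a mesenchymal MDA-MB-231 line were checked in both groups; they cannot tell the 1833 subline from another subline. Of those listed as high, CAV2 has no probe set with 1 symbol, and the 8 others were above the dim level in both groups. VIM, the filament protein vimentin, read 12.84 ± 0.03 (SD, n = 3) in the control and 13.47 ± 0.01 (n = 2) in the Tet1 arrays. ANXA1, CAV1, CD44 and MSN were also at 12.45 or above in both groups. S100A4 and TGFBI, listed as high, read 7.55 and 8.33 in the control and 10.66 and 10.98 in the Tet1 arrays. CDH1, the epithelial cadherin, read 5.66 ± 0.05 (SD, n = 3) and 6.04 ± 0.15 (n = 2), dim in both. PGR, the progesterone receptor, was dim as well, at 5.53 ± 0.04 and 5.79 ± 0.08. ESR1, the estrogen receptor, went from 6.05 to 6.95 and MTAP from 6.28, just above the dim level, to 6.20. EPCAM and ERBB2, also listed as low for this line, were not dim, at 8.25 and 8.92 in the control arrays.

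The 4 microRNA precursors with the largest falls among 173 were MIRLET7G, MIR222, MIR29A and MIR221, and their mature sequences from RefSeq (GRCh38.p14) are shown because 2 of them form 1 cluster with 1 shared seed. Capitals mark the seed, bases 2 to 8. miR-221 and miR-222 lie on the minus strand at chrX:45746180-45746202 and chrX:45747036-45747056, miR-29a at chr7:130876748-130876769 and let-7g at chr3:52268336-52268357, both also on the minus strand.
hsa-miR-221-3p: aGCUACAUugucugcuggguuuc
hsa-miR-222-3p: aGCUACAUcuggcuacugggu
hsa-miR-29a-3p: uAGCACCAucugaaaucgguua
hsa-let-7g-5p: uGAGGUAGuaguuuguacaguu
The first pair share the seed GCUACAU, while miR-29a has AGCACCA and let-7g has GAGGUAG.

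MIR221, the precursor of miR-221, a microRNA raised in many aggressive breast cancers, read 9.89, 9.75 and 9.57 in the control arrays and 7.91 and 8.09 in the Tet1 arrays. All Tet1 values lay below all control values, with a difference of -1.74 (SE 0.14, adjusted p = 6.5e-07). In the HOXA9 arrays it read 9.49 and 9.78, near the control level, and Tet1 and HOXA9 differed by -1.64 (adjusted p = 0.00086). MIR222 read 8.69, 8.47 and 8.59 in the control arrays, 6.54 and 6.57 in the Tet1 arrays and 7.40 and 7.62 in the HOXA9 arrays. Its 3 groups were thus separate, with a Tet1 minus control difference of -2.03 (SE 0.12, adjusted p = 5.2e-08) and a Tet1 minus HOXA9 difference of -0.95 (adjusted p = 0.0074).

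MIR29A, whose product targets collagen and DNMT3 transcripts, read 6.81, 7.01 and 6.69 in the control arrays and 4.99 and 4.90 in the Tet1 arrays, where it was dim. The difference was -1.89 (SE 0.21, adjusted p = 5.7e-06). The HOXA9 arrays spread from 5.58 to 6.40, and the Tet1 minus HOXA9 difference of -1.05 missed the threshold (adjusted p = 0.098). MIRLET7G, a let-7 precursor, read 8.11, 7.65 and 8.08 in the control arrays and 5.93 and 6.02 in the Tet1 arrays. It fell by 1.98 (SE 0.16, adjusted p = 5.0e-07), and the HOXA9 arrays at 5.99 and 6.27 did not stand apart from Tet1. MIR181B1 was singled out after its values were seen: it differed by -1.34 between Tet1 and control and by -1.41 between Tet1 and HOXA9 (adjusted p = 0.01). Of the 173 precursors, 43 rose (24.9%) and 20 fell (11.6%), against 20.1% and 21.5% of all genes. Only 61 of the 173 had a control mean above the dim level, which limits how these shares can be read. At least 2-fold in all 3 scalings, 1 rose (MIR129-1, 1.58) and 5 fell, the 5 just described. The extraction kit keeps small RNA, but whether these probe sets read mature molecules was not tested. The values therefore stand for the probe sets of the precursor genes and not for levels of the mature microRNAs.

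The targeted gene did not stand out. TET1 read 6.59, 6.45 and 6.66 in the control arrays and 7.16 and 6.98 in the Tet1 arrays, a deposited difference of 0.50 (SE 0.14, adjusted p = 0.0052). After joint quantile normalization the difference was -0.06 (adjusted p = 0.74), and with equal array medians it was 0.04 (adjusted p = 0.80). The HOXA9 arrays read 7.20 and 7.40, above both Tet1 arrays, with a Tet1 minus HOXA9 difference of -0.23 (95% interval -0.56 to 0.10, adjusted p = 0.69). The labels give neither the species nor the length of the Tet1 insert, and the probe set was not mapped to the transcript here, so a transgene that these probes do not match would not be seen. The TET1 probe set therefore does not bear out the label, and "Tet1 arrays" means here the arrays labelled Tet1, in every direction given.

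Among the other TET genes, TET3 read 8.69, 8.61 and 8.45 in the control arrays and 8.06 in both Tet1 arrays. It fell by 0.52 (SE 0.09, adjusted p = 0.00018). TET2 differed by -0.11 (adjusted p = 0.27), and its other probe set by 0.87. The list of 17 measured DNA methylation writers and erasers had 2 genes that rose and 6 that fell, with a median of 0.02, -0.28 and -0.45 in the deposited, quantile and equal-median values, so that the sign of the median depends on the scaling.

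DNMT3B, a de novo methyltransferase, read 8.59, 8.66 and 9.04 in the control and 7.92 and 7.79 in the Tet1 arrays, a difference of -0.91 (SE 0.11). DNMT1, the maintenance enzyme, went from 11.81, 11.98 and 11.92 to 11.11 and 11.10, a difference of -0.80 (SE 0.08). MBD4, a glycosylase that removes mismatched thymine at CpG sites, differed by -0.74, and APOBEC3B, a cytidine deaminase, by -0.83. In the other direction, DNMT3A rose by 0.73, with control values of 7.62, 7.66 and 7.52 and Tet1 values of 8.31 and 8.34. DNMT3L, a cofactor without activity of its own, rose by 0.92 from a dim control level. None of the 17 genes differed between Tet1 and HOXA9 at an adjusted p under 0.05.

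**Figure D2:**
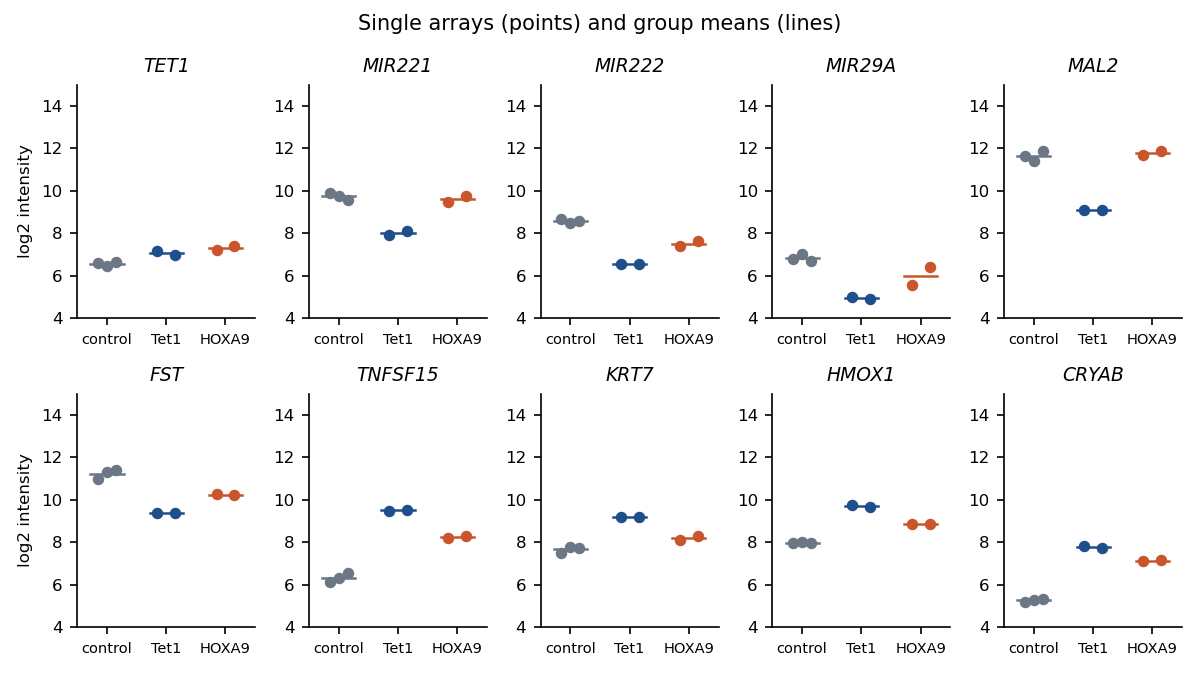
Log2 intensity (y axis) of 10 genes in each control (3), Tet1 (2) and HOXA9 (2) array; points are arrays and lines group means. TET1 in the Tet1 arrays (7.16 and 6.98) lies no higher than in the HOXA9 arrays, while MIR221 and MAL2 are low in the Tet1 arrays only and TNFSF15, KRT7, HMOX1 and CRYAB are higher in the Tet1 than in the HOXA9 arrays.

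Genes of cell division were lower as a group in the Tet1 arrays. Of 36 measured mitosis genes, 28 fell (77.8%, against 21.5% of all genes) and 1 rose, with medians of -0.58, -0.48 and -1.04 in the 3 scalings. In the HOXA9 arrays the median was -0.43, and none of the 36 was called between Tet1 and HOXA9. Of the genes that fell, 7 did so at least 2-fold in all 3 scalings. CDC20, the activator of the anaphase-promoting complex, read 12.37, 12.63 and 12.51 in the control and 10.74 and 10.78 in the Tet1 arrays. This was a 3.34-fold lower signal, with a difference of -1.74 (SE 0.08, adjusted p = 1.4e-08). FOXM1, the transcription factor that drives genes of the G2 phase and mitosis, differed by -1.39 (SE 0.07), from 11.18, 11.24 and 11.23 to 9.86 and 9.80. CDCA8 and AURKB, 2 members of the chromosomal passenger complex, differed by -1.37 and -1.34. PTTG1, the securin that holds separase inactive until anaphase, was the 1 member that rose, by 1.19 from 9.08, 9.44 and 9.54 to 10.59 and 10.51.

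DNA replication genes moved the same way: 30 of 37 fell (81.1%), none rose, and the medians were -0.53, -0.51 and -1.0. The HOXA9 arrays had a median of -0.43, with none called between Tet1 and HOXA9. CLSPN, the checkpoint protein claspin, read 10.23, 10.30 and 10.17 in the control and 8.62 and 8.69 in the Tet1 arrays, a difference of -1.58 (SE 0.11, adjusted p = 1.7e-07). CDC6, which loads the MCM helicase at origins, differed by -1.37. GINS1 and GINS2, subunits of the active helicase, differed by -1.14 and -1.26. LIG1, the ligase that joins Okazaki fragments, differed by 0.59 in the deposited values and was not called in all 3 scalings.

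Among 20 genes of nucleotide supply, 11 fell and 1 rose, with a median of -0.38 in the Tet1 and -0.32 in the HOXA9 arrays. CAD, which starts pyrimidine synthesis, differed by -1.25 and CTPS1, which makes CTP, by -1.20, while TYMS, thymidylate synthase, differed by -0.75. NT5E (CD73), an ectoenzyme that releases adenosine, was the gene that rose, by 0.86. Of the D-type cyclins named by the list of cell cycle inhibitors and quiescence, CCND2 read 9.66, 9.14 and 9.11 in the control and 7.56 and 7.67 in the Tet1 arrays, a difference of -1.69, and CCND1 differed by -0.92. No list of cyclins was counted. Of 22 polycomb and chromatin genes, 11 fell and none rose. They include EZH2, the methyltransferase of polycomb complex 2, at -0.94, and its partner SUZ12 at -0.80.

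Promoters of 30 of the mitosis genes were in the RefSeq table, and CDC20 and CDCA8 are shown because they hold the hexamer TTTGAA, known in promoters of late cell cycle genes as the cell cycle genes homology region. Each stretch is the 250 bases before the RefSeq start (GRCh38.p14), and capitals mark TTTGAA on either strand.
CDC20 (chr1:43358731-43358980, plus strand): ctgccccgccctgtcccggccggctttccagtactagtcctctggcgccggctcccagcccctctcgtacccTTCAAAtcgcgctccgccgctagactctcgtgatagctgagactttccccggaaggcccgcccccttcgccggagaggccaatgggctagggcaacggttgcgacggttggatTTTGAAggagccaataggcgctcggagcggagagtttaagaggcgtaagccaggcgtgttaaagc
CDCA8 (chr1:37692266-37692515, plus strand): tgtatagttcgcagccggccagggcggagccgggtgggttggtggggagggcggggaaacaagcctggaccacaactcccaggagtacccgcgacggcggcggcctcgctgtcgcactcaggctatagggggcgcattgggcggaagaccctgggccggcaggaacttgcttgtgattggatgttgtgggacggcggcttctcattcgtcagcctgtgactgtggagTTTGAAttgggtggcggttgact
CDC20 holds 2 matches, 178 and 65 bases before the start, and CDCA8 holds 1, at 23 bases. TTTGAA was found in 17 of the 30 mitosis promoters (56.7%), in 0 of 30 promoters of DNA replication genes and in 1506 of 14239 promoters of all genes tested (10.6%). The 17 mitosis genes with a match had a median difference of -0.83, and 15 of them fell. The 13 without a match had a median of -0.46, and 9 of them fell. These matches describe the letters in this window and are neither sites nor causes.

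Genes that build ribosomes in the nucleolus were lower as well. Of 24 ribosome biogenesis genes, 16 fell (66.7%) and none rose, with medians of -0.43, -0.41 and -0.90. The median in the HOXA9 arrays was -0.42. UTP4, a small-subunit processome protein, read 12.82, 12.87 and 12.76 in the control and 11.77 and 11.80 in the Tet1 arrays (-1.03, SE 0.07). POLR1A and POLR1B, the large subunits of RNA polymerase I, differed by -0.79 and -0.83. Among 32 genes of mitochondrial translation, 12 fell and none rose, and the median was -0.16 in both the Tet1 and the HOXA9 arrays. MARS2, the mitochondrial methionyl-tRNA synthetase, had the largest change, from 10.41, 10.49 and 10.30 to 8.27 and 8.12 (-2.20, SE 0.08, adjusted p = 1.9e-09).

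The genes of the ribosome itself went the other way. Of 35 measured ribosomal protein genes, 15 rose (42.9%, against 20.1% of all genes) and 1 fell. The median was 0.48 in the deposited values, 0.39 after joint quantile normalization and 0.01 with equal medians, in each case above the median of all genes, and it was 0.47 in the HOXA9 arrays. RPL13 read 9.45, 9.60 and 9.70 in the control and 11.38 and 11.34 in the Tet1 arrays, a difference of 1.77 (SE 0.08). Its 2 other probe sets differed by 0.59 and 1.39. RPL27 rose by 1.64, and RPL22 was the one that fell, with a difference of -0.68. Ribosomal protein genes have many near-identical pseudogenes, so their signals are uncertain. In the list of 34 oxidative phosphorylation genes, 10 rose (29.4%) and 8 fell (23.5%), near the shares of all genes. The members with the largest rises were COX7B by 1.95, COX6C by 1.93 and NDUFA1 by 1.51, and those that fell include SDHA at -0.55 and NDUFA9 at -0.56.

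Hypoxia targets were the list with the largest median among the protein-coding lists measured. When oxygen is low, the hypoxia-inducible factors are no longer degraded and bind DNA at a core ACGTG. Of 22 measured targets, 14 rose (63.6%), none fell in all 3 scalings, and 9 rose at least 2-fold in all 3, against 1.35% of all genes. The medians were 1.33, 1.27 and 0.86. BHLHE40, a repressor in the circadian clock, read 8.49, 8.23 and 8.84 in the control and 11.47 and 11.42 in the Tet1 arrays. That is a 7.61-fold difference (2.93 on the log2 scale, SE 0.16, adjusted p = 3.9e-08), and the HOXA9 arrays read 11.13 and 11.11. ANGPTL4, an inhibitor of lipoprotein lipase, went from 7.73, 7.18 and 7.36 to 10.55 and 10.52 (3.11, SE 0.13). DDIT4, an inhibitor of mTORC1, rose by 2.56 and NDRG1, a stress-response protein, by 2.22. ADM, adrenomedullin, was called lower in the deposited values (-0.37) and not in all 3 scalings. The median of these 22 genes was 1.38 in the HOXA9 arrays, and none differed between Tet1 and HOXA9 at an adjusted p under 0.05. Oxygen or cell density is not given in the labels.

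Of the 17 hypoxia targets with a promoter in the table, 10 held ACGTG on either strand (58.8%), against 3001 of 14239 promoters of all genes tested (21.1%). BHLHE40 is shown because it holds several; capitals mark ACGTG or its complement in the 250 bases before the start.
BHLHE40 (chr3:4979187-4979436, plus strand, GRCh38.p14): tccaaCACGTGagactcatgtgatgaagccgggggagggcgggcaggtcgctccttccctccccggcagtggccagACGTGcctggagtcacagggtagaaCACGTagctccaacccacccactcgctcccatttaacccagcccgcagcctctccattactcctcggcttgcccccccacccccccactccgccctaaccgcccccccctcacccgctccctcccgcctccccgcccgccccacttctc
The 4 matches begin 245, 244, 174 and 149 bases before the start, and the first pair overlap on opposite strands. The 10 targets with a match had a median difference of 1.37, and 7 of them rose. The 7 without one had a median of 0.93, and 4 of them rose. ACGTG was also found in 11 of 30 mitosis promoters (36.7%), a list that was lower. Here too the matches describe letters and are neither sites nor causes.

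Glycolysis genes, several of them known targets of hypoxia-inducible factors, changed in part. Of 18, 7 rose and 2 fell. PFKFB4, which makes an activator of phosphofructokinase, rose by 1.66 from 7.37, 7.31 and 7.39 to 9.02 and 9.01. ENO2, ALDOC and PFKFB3 rose by 1.36, 1.31 and 1.29. HK1 and PFKM fell, by 0.34 and 0.44. PDK4, a kinase that shuts pyruvate dehydrogenase and was named by the fatty acid list, rose by 2.25.

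**Figure D3:**
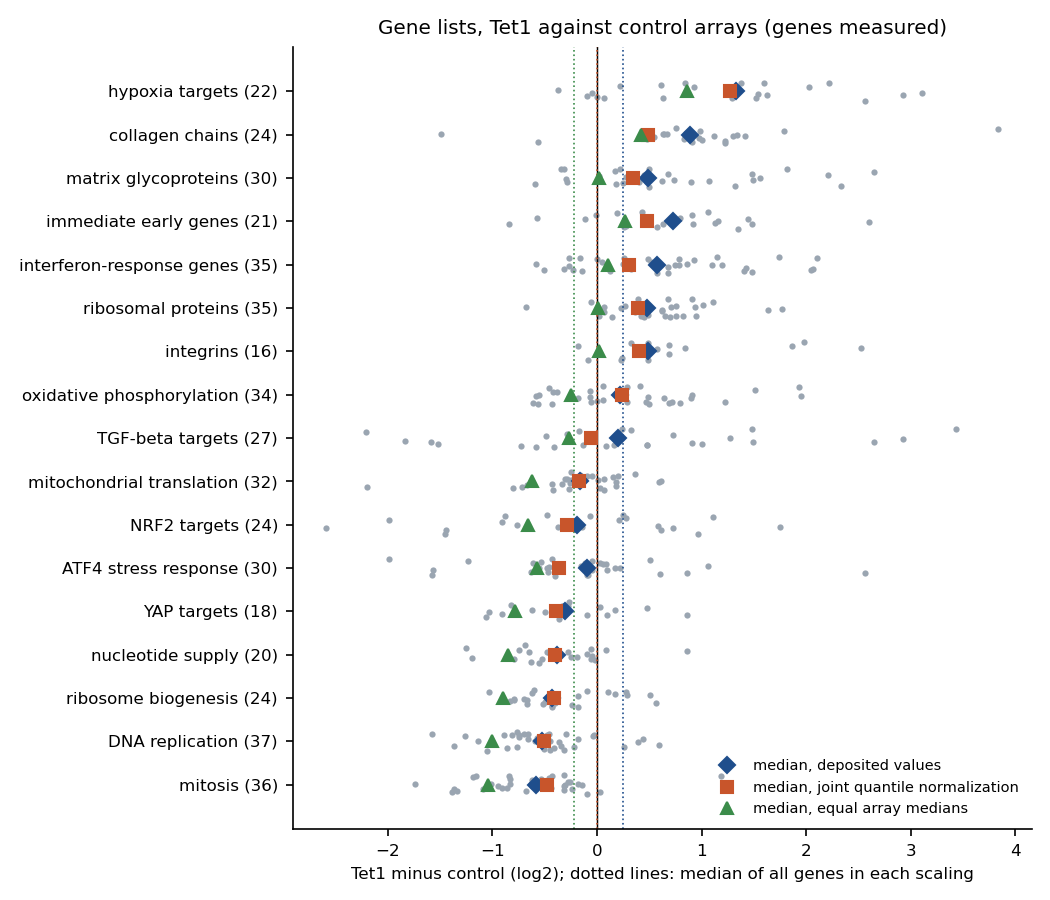
Tet1 minus control difference (log2, x axis) for the members of 17 gene lists (y axis, number of genes measured in brackets); grey points are genes in the deposited values, coloured symbols list medians in the 3 scalings and dotted lines the median of all genes in each scaling. Hypoxia targets have medians from 0.86 to 1.33, while the medians of mitosis and DNA replication genes lie between -0.48 and -1.04.

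Collagen genes were higher. Of 24 collagen chain genes, 16 rose (66.7%) and 2 fell, with medians of 0.89, 0.49 and 0.42. The HOXA9 arrays had a median of 0.74, and 2 of the 24 were called between Tet1 and HOXA9. COL6A3, a chain of the beaded collagen VI filament, had the largest rise of the protein-coding genes named here. It read 6.42, 6.32 and 6.32 in the control and 10.16 and 10.23 in the Tet1 arrays, a 14.4-fold difference (3.84, SE 0.08, adjusted p = 2.8e-11), with HOXA9 arrays at 9.81 and 9.86. COL1A2, a chain of fibrillar collagen I, rose by 1.79 and was 0.46 higher in Tet1 than in HOXA9 arrays (adjusted p = 0.044). COL1A1, the other collagen I chain, rose by 1.22 and was 0.56 higher than in HOXA9 arrays (adjusted p = 0.0084). COL8A1, a short-chain collagen, fell by 1.49.

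Of 30 matrix glycoprotein genes, 10 rose (33.3%) and 2 fell, with medians of 0.49, 0.34 and 0.02 in the Tet1 arrays and 0.32 in the HOXA9 arrays. FN1, fibronectin, read 11.16, 10.38 and 10.66 in the control and 13.05 and 13.07 in the Tet1 arrays (2.33, SE 0.20). TGFBI, a secreted adhesion protein, went from 8.16, 8.45 and 8.37 to 10.99 and 10.97 (2.65, SE 0.10). SPARC, a collagen-binding protein, rose by 2.21 from a dim control level. EFEMP1, fibulin-3, fell by 0.59 and was 0.90 higher in Tet1 than in HOXA9 arrays (adjusted p = 0.032). Among 16 integrins, 4 rose, a share near the 20.1% of all genes, and none fell, with medians of 0.49, 0.40 and 0.02, and of 0.48 in the HOXA9 arrays. Those that rose were ITGA10 by 2.53, ITGB3, a receptor subunit linked to bone metastasis, by 1.98, ITGB8 by 1.87 and ITGA11 by 0.84.

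Matrix enzymes split. MMP1, interstitial collagenase and a bone metastasis gene of this line, read 13.50, 13.51 and 13.33 in the control and 10.59 and 10.58 in the Tet1 arrays. That is a 7.26-fold lower signal (-2.86, SE 0.10, adjusted p = 1.4e-09), and the HOXA9 arrays read 10.37 and 10.54. MMP2, gelatinase A, rose by 1.80 from a dim level, and PLAU, urokinase, by 1.32. P3H2, a prolyl 3-hydroxylase of collagen, went from 11.46, 11.36 and 11.14 to 8.51 and 8.46 (-2.84), whereas P4HA1, a prolyl 4-hydroxylase and hypoxia target, rose by 1.60. In the list of 28 proteases and inhibitors, 9 rose and 7 fell.

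TGF-beta targets moved in both directions. Of 27 genes, 8 rose (29.6%) and 9 fell (33.3%), against 20.1% and 21.5% of all genes. At least 2-fold in all 3 scalings, 5 rose and 4 fell. The median was 0.20, -0.06 and -0.27, and 0.15 in the HOXA9 arrays. PMEPA1, an inhibitor of SMAD signalling that TGF-beta induces, read 7.50, 7.34 and 7.42 in the control, 10.88 and 10.81 in the Tet1 and 10.12 and 10.28 in the HOXA9 arrays. It rose by 3.43 (SE 0.10, adjusted p = 5.6e-10) and was 0.65 higher in Tet1 than in HOXA9 arrays (adjusted p = 0.032). TGFB2, a ligand, fell from 10.84, 11.02 and 11.18 to 8.78 and 8.82 (-2.21, SE 0.11). The BMP branch split likewise. BMP4 fell by 1.59. ID3, a BMP target, fell by 1.52, while BMP2 rose by 1.49. FST, follistatin, which binds activin, read 10.98, 11.30 and 11.39 in the control, 9.40 and 9.38 in the Tet1 and 10.27 and 10.23 in the HOXA9 arrays. It fell by 1.84 and was 0.86 lower in Tet1 than in HOXA9 arrays (adjusted p = 0.033).

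Immediate early genes, which growth factors switch on within minutes, were mostly higher: 11 of 21 rose (52.4%) and 2 fell, with medians of 0.73, 0.48 and 0.27, and of 0.54 in the HOXA9 arrays. FOS, a partner in the AP-1 factor, read 6.67, 6.96 and 6.93 in the control, 9.55 and 9.35 in the Tet1 and 8.88 and 8.83 in the HOXA9 arrays. It rose by 2.60 (SE 0.10, adjusted p = 2.5e-09) and was 0.60 higher in Tet1 than in HOXA9 arrays (adjusted p = 0.033). JUNB and FOSB rose by 1.48 and 1.44, and FOSL1 and FOSL2, the relatives that accumulate with sustained ERK activity, fell by 0.84 and 0.57. Of 18 YAP targets, 9 fell and 1 rose, with a median of -0.31 in the Tet1 and -0.36 in the HOXA9 arrays. TEAD1, a DNA-binding partner of YAP, fell by 1.06 and ANKRD1, a muscle ankyrin repeat protein, by 1.03, while NT5E, also on this list, was the one that rose.

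The xenobiotic and antioxidant genes held some of the largest falls. CYP1B1, an aryl hydrocarbon receptor target that oxidises steroids, read 10.22, 8.72 and 9.09 in the control and 6.34 and 6.27 in the Tet1 arrays. Its difference of -3.04 had a wide error (SE 0.50, adjusted p = 0.00014), and the control arrays lay far apart. CYP1A1, another such target, fell by 1.69 (SE 0.42) to a dim level. NQO1, a quinone reductase shared with the NRF2 list, went from 12.48, 12.16 and 11.96 to 9.63 and 9.59 (-2.59, SE 0.22). In all, 3 of 8 aryl hydrocarbon receptor targets fell (37.5%, against 21.5% of all genes), each at least 2-fold, and none rose. The list medians were -0.04, -0.21 and -0.51 in the 3 scalings, and -0.07 in the HOXA9 arrays. In the deposited values 2 members were called higher. AHR itself, the receptor, differed by 0.45 in the deposited values and was not called in all 3 scalings. The xenobiotic response element core GCGTG was found in 2 of 6 promoters of these targets (33.3%), against 39.7% of all genes tested.

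Of 24 NRF2 targets, 11 fell and 2 rose, with a median of -0.19 in both the Tet1 and the HOXA9 arrays. SLC7A11, the cystine importer, read 12.46, 12.30 and 12.19 in the control and 10.31 and 10.34 in the Tet1 arrays (-1.99, SE 0.13). ME1 and GCLM, which supply NADPH and glutathione, differed by -1.45 and -1.44. HMOX1, heme oxygenase, was the exception with the largest rise: 7.95, 8.01 and 7.98 in the control, 9.78 and 9.67 in the Tet1 and 8.88 and 8.87 in the HOXA9 arrays. It rose by 1.75 and was 0.85 higher in Tet1 than in HOXA9 arrays (adjusted p = 0.00039). The antioxidant response element core TGACNNNGC was found in 4 of 18 promoters of NRF2 targets (22.2%), against 11.8% of all genes tested.

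Amino acid genes of the ATF4 pathway fell in 13 of 30 cases and rose in 3, with a median of -0.10 in the Tet1 and -0.20 in the HOXA9 arrays. PSAT1, of serine synthesis, fell by 1.58 (SE 0.08). SLC7A5, the leucine transporter, fell by 1.57. SLC1A5, the glutamine transporter, fell by 1.23 in its brighter probe set, while its other probe set differed by 0.51. The transferrin receptor TFRC read 12.42, 12.49 and 12.49 in the control and 10.16 and 10.30 in the Tet1 arrays, a difference of -2.23 (SE 0.07, adjusted p = 7.8e-10). MT1X, a metallothionein that binds zinc, rose by 1.82. The drug exporter ABCG2 fell by 2.34, from 9.02, 8.34 and 8.53 to 6.30 and 6.29.

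Several cytokine genes had large differences in both directions. TNFSF15, a ligand of the TNF family, read 6.14, 6.32 and 6.57 in the control, 9.48 and 9.53 in the Tet1 and 8.19 and 8.31 in the HOXA9 arrays. It rose by 3.16 (SE 0.11, adjusted p = 2.2e-09) and was 1.25 higher in Tet1 than in HOXA9 arrays (adjusted p = 0.001). CXCL8, the neutrophil chemokine IL-8, rose by 2.24 and was 0.72 higher than in HOXA9 arrays (adjusted p = 0.03). CCL26, eotaxin-3, rose by 2.62 from a dim level. CCL2, which draws monocytes, went the other way, from 11.34, 10.81 and 11.63 to 8.45 and 8.49 (-2.79, SE 0.19). IL7R, the interleukin-7 receptor chain, fell by 2.54, with HOXA9 arrays at 8.32 and 8.44 between the 2 groups. Across lists, 5 of 20 chemokines rose and 3 fell, and 6 of 20 interleukins and cytokines rose and 6 fell. In lists of this size these counts lie near the 20.1% and 21.5% of all genes. After joint quantile normalization the list medians were -0.04 for chemokines and -0.16 for interleukins and cytokines. Only 11 of the 20 chemokines and 12 of the 20 interleukins and cytokines had a control mean above the dim level.

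Interferon-response genes were higher in part: 14 of 35 rose (40.0%) and 4 fell, with medians of 0.57, 0.31 and 0.11. IFIT1, which binds foreign RNA, went from 7.82, 7.70 and 8.09 to 10.02 and 9.92 (2.10, SE 0.11), IFI27 rose by 2.07, IFITM1, which blocks viral entry, by 2.05 and BST2, tetherin, by 1.74. OAS3, a sensor of double-stranded RNA, fell by 0.58. The median of the list was 0.74 in the HOXA9 arrays, whose cells were also transduced with 2 lentiviral vectors. The part of the vectors was not tested.

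The 20 largest rises and 20 largest falls that the naming rule took, which leaves out most small RNAs, include several not yet described, and both sets were at least 2-fold in all 3 scalings. HSPA6, a strictly inducible HSP70 chaperone, read 6.41, 6.33 and 6.26 in the control and 10.07 and 9.98 in the Tet1 arrays (3.69, SE 0.08, adjusted p = 5.4e-11). CRYAB, a small heat shock protein outside these 20 rises and named by the heat shock list, rose by 2.51 from a dim level and was 0.66 higher in Tet1 than in HOXA9 arrays (adjusted p = 0.0024). S100A4, a calcium-binding protein tied to metastasis, went from 7.63, 7.39 and 7.64 to 10.70 and 10.62 (3.11, SE 0.11). AGR2, a secretory protein of luminal cells, rose by 2.98, and ADTRP, which regulates a coagulation inhibitor, by 3.17. TAGLN3, SERPINF1, MUC15, CST1 and ROCK1P1 rose by 2.68 to 2.81.

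Among the falls, MAL2, a protein of apical vesicle traffic, read 11.66, 11.42 and 11.85 in the control and 9.09 and 9.08 in the Tet1 arrays, but 11.70 and 11.87 in the HOXA9 arrays. It fell by 2.56 against control (SE 0.12, adjusted p = 1.3e-08) and differed by -2.70 between Tet1 and HOXA9 arrays, with HOXA9 minus control at 0.14. TFAP2C, a transcription factor of mammary epithelium, fell by 2.54, from 9.60, 9.18 and 9.35 to 6.79 and 6.88. UCA1, a long noncoding RNA raised in bladder and breast tumours, fell by 2.93 and GMPR, a GMP reductase, by 2.45. AK5, an adenylate kinase, fell by 2.16. SSX1, a cancer-testis antigen, fell by 2.27. ZNF114, RFPL4A, SLC10A5 and SHISA2 fell as well, with differences of -2.46, -2.41, -2.20 and -2.10. In other lists, ROR1, an orphan kinase receptor, fell by 2.04. LEF1, a WNT-pathway factor, differed by -1.51 and SNAI2, an EMT factor, by -1.11. The list of SNAI2 leaned the other way. Of 16 EMT factors and mesenchymal genes, 6 rose (37.5%) and 3 fell (18.8%), with medians of 0.57, 0.28 and 0.11 in the 3 scalings. CLDN1 fell by 1.47 and CLDN4, another tight junction protein, rose by 1.65.

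**Figure D4:**
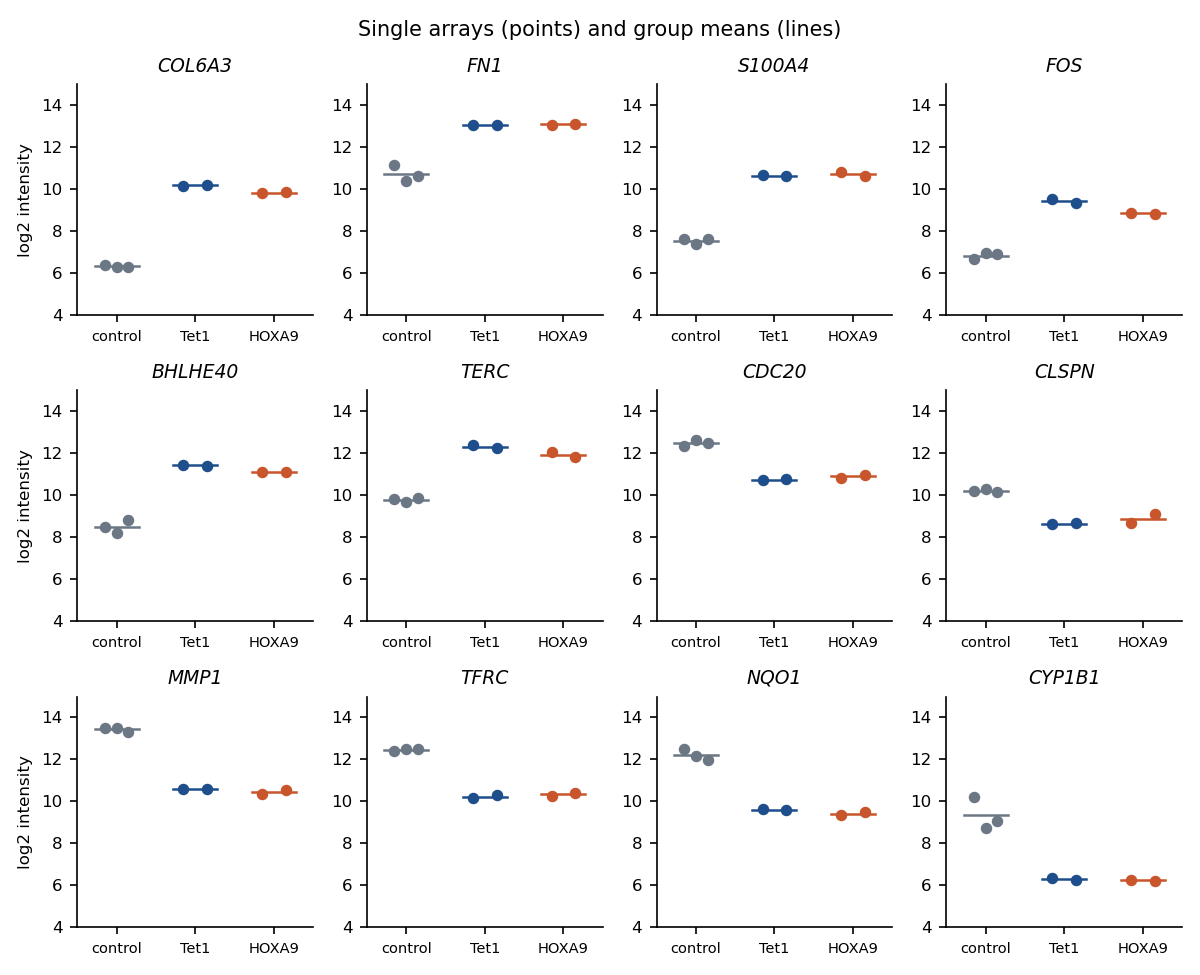
Log2 intensity (y axis) of 12 genes in each control (3), Tet1 (2) and HOXA9 (2) array; points are arrays and lines group means. In each of the 12 the Tet1 arrays lie outside the range of the control arrays, COL6A3 from 6.42 or below to 10.16 or above and MMP1 from 13.33 or above to 10.59 or below.

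The direct comparison of Tet1 with HOXA9 arrays, which lie within 1 array set, called far fewer genes: 21 higher (0.114%) and 59 lower (0.32%) of 18417, 0.434% in all, with 1687 genes at an unadjusted p under 0.05. Of the 20 largest rises 4 were called there (TNFSF15, ADTRP, PMEPA1 and FOS), and of the 20 largest falls 3 (MAL2, AK5 and GMPR). These genes were picked for large Tet1 minus control differences, and the same Tet1 arrays enter this comparison. Such a choice favours calls here, so the counts cannot be set against the share of all genes. ADTRP was 0.65 higher in Tet1, and AK5 and GMPR were 1.03 and 0.47 lower. KRT7, a simple-epithelium keratin, read 7.52, 7.77 and 7.72 in the control, 9.20 and 9.21 in the Tet1 and 8.11 and 8.28 in the HOXA9 arrays, so that it rose by 1.54 against control and was 1.02 higher in Tet1 than in HOXA9 arrays. MAGEC2, a cancer-testis antigen, rose by 1.77 and was 0.69 lower than in HOXA9 arrays (adjusted p = 0.019). SERPINA3, a protease inhibitor, and 3 more genes were singled out after their values were seen. The first rose by 2.44 and was 0.92 higher in Tet1 than in HOXA9 arrays. MMP13 and TMPRSS15 differed from HOXA9 by -2.66 and -2.04, and RGS2 by -1.15, each with a rise against control in the Tet1 arrays, of 0.87, 1.64 and 1.55. For most of the genes named here a difference between Tet1 and HOXA9 was not called, which does not show that they are alike.

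In the deposited values, lists of markers of other cell types were higher in the Tet1 arrays, as were most genes at such low levels. After joint quantile normalization the list medians were 0.57 for fibroblast, 0.21 for endothelial, 0.13 for blood-lineage and 0.09 for embryonic kidney line markers. They were -0.14 for neuronal markers and -0.15 for pluripotency genes. Over 12 fibroblast markers the mean level was 6.29 to 6.30 in the control and 7.17 to 7.21 in the Tet1 arrays, and 8 rose (66.7%, against 20.1% of all genes), COL1A1, COL1A2 and COL3A1 among them. DCN and LUM, which define fibroblasts, were dim in both groups, at 4.85 and 4.95 in the control arrays. Over 13 blood-lineage markers the mean was 6.49 to 6.57 in the control and 7.31 to 7.33 in the Tet1 arrays. Of them, 3 rose (23.1%), near the share of all genes. CD96, a T and NK cell receptor, rose by 3.08, and LYZ, lysozyme, rose by 1.72 from a dim level, while PTPRC, the pan-leukocyte marker CD45, read 4.91 in the control arrays. Over 12 endothelial markers the mean went from between 6.96 and 7.05 to 7.56 and 7.61, and 6 rose, TIE1 by 1.82, and 2 fell. The neuronal, embryonic kidney line and pluripotency lists had 2 of 11, 3 of 9 and 2 of 8 members that rose. The part of other cells in the results was not tested.

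Noncoding RNAs of fixed structure held the largest differences on the array. H/ACA and Cajal body RNAs guide pseudouridylation in ribosomal and spliceosomal RNA. Of 77 measured, 48 rose (62.3%), 34 of them at least 2-fold in all 3 scalings, and 6 fell, with medians of 1.23, 1.10 and 0.77, and of 1.03 in the HOXA9 arrays. SNORA60 read 6.43, 6.41 and 6.40 in the control, 10.69 and 10.41 in the Tet1 and 10.74 and 10.34 in the HOXA9 arrays, a Tet1 minus control difference of 4.14 (SE 0.12, adjusted p = 4.7e-10). SNORA20 and SNORA38B rose by 3.80 and 3.74. Of 115 C/D box RNAs, which guide ribose methylation, 28 rose (24.3%) and 33 fell (28.7%), with a median of -0.03. These shares lie near the 20.1% and 21.5% of all genes, and only 54 of the 115 had a control mean above the dim level. SNORD41 rose by 3.62 and SNORD105 by 3.39, while SNORD52 fell from 9.69, 9.65 and 9.56 to 7.84 and 7.92 (-1.75).

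Of 23 U small nuclear RNAs of the spliceosome, 15 rose and none fell, 10 of them at least 2-fold in all 3 scalings, and the median was 1.19 in the Tet1 and 1.40 in the HOXA9 arrays. RNU4-1, a U4 gene, read 8.95, 9.01 and 9.30 in the control and 13.10 and 12.98 in the Tet1 arrays (3.96, SE 0.11). RNU11, of the minor spliceosome, rose by 2.95. U4 genes and their copies are near-identical, so RNU4-1 and RNU4-2 (3.38) may share signal. TERC, the RNA template of telomerase, went from 9.83, 9.67 and 9.87 to 12.39 and 12.26 (2.54, SE 0.10), RMRP, the RNA of RNase MRP, rose by 3.08 and RPPH1, that of RNase P, by 1.62. The vault RNA VTRNA1-1 rose by 3.53 from a dim level. None of these classes but the microRNA precursors, with 9, held a gene called between Tet1 and HOXA9. Such RNAs are short and lack a poly(A) tail, and the part of extraction, labelling or array set in their differences was not tested.

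**Figure D5:**
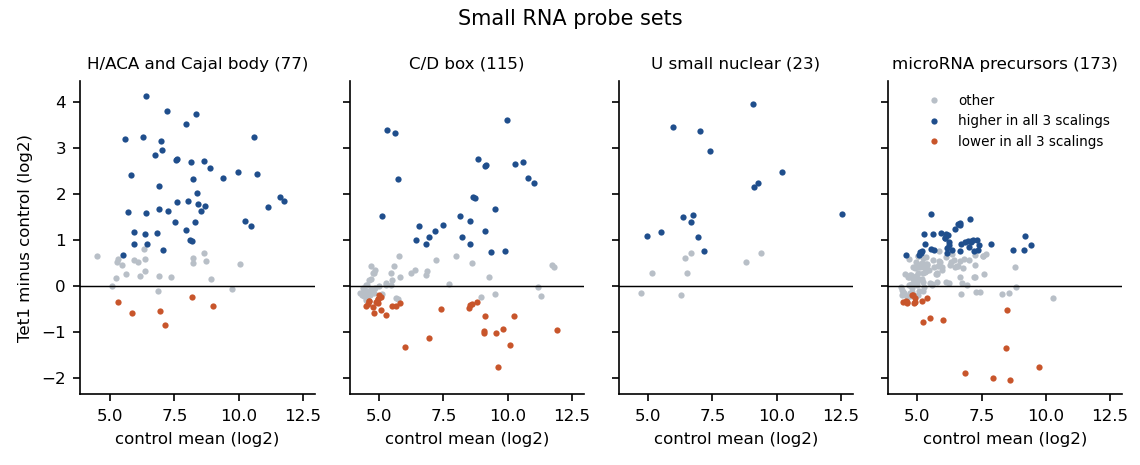
Tet1 minus control difference (log2, y axis) against the control mean (log2 intensity, x axis) for 4 classes of small RNA; points are genes, coloured where called higher or lower in all 3 scalings. H/ACA and Cajal body RNAs and U small nuclear RNAs lie mostly above 0, up to 4.14 for SNORA60 and 3.96 for RNU4-1, whereas C/D box RNAs lie on both sides and the microRNA precursors with the largest differences lie below 0.

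By chromosome, genes that rose made up 27.7% of those on chromosome 20, 26.2% on 21 and 25.6% on 19, against 75 of 576 genes on chromosome 15 and 35 of 264 (13.3%) on 18. Genes that fell made up 27.3% on chromosome 15 and 14.9% on 19. These shares cover the 18392 genes with a chromosome in the RefSeq table and are a description without a test, since neighbouring genes are not independent.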

How the data were processed

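The authors deposited log2 values of 33297 probe sets, and per the submitters' processing notes they were made with R 2.11 and RMA, robust multi-array averaging; the file does not say whether both array sets were normalized together. The annotation gives 1 symbol to 19460 probe sets, several to 1754 and none to 12083. Each of the 18417 genes was read from its probe set with the highest mean. A model over the 4 groups and 10 independent arrays was fitted with limma 3.58.1 in R 4.3.3 (lmFit, eBayes, Benjamini-Hochberg over all genes, threshold 0.05), and again after joint quantile normalization and with equal array medians. Members and gene lists were chosen with earlier results of these data known, and the call in all 3 scalings after seeing the data. Named genes are the 20 largest rises and falls, called in deposited and quantile values without overlap and not dim, most noncoding RNAs left out; up to 4 per list and direction; and TET1 to TET3. Markers of the line and of other cells, the small RNA values and the genes said to be chosen after seeing values were added. The number of arrays limits the precision.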

Additional observations from a re-analysis of the deposited data

Results flagged for a closer look

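Of the genes named, 23 differed between the Tet1 and HOXA9 arrays at an adjusted p under 0.05 in limma's test. For these 23, the difference from the shared control arrays was thus of unequal size in the 2 groups. Over all genes the share called was 0.434%, but many named genes were picked for large Tet1 differences, so no enrichment can be read. MIR181B1, SERPINA3, MMP13, TMPRSS15 and RGS2 were named only after their values were seen. Higher in the Tet1 arrays were TNFSF15 by 1.25 on the log2 scale, KRT7 by 1.02, SERPINA3 by 0.92, EFEMP1 by 0.90, HMOX1 by 0.85, CXCL8 by 0.72, CRYAB by 0.66, ADTRP and PMEPA1 by 0.65, FOS by 0.60, COL1A1 by 0.56 and COL1A2 by 0.46. Lower in the Tet1 arrays were MAL2 with -2.70, MMP13 with -2.66, TMPRSS15 with -2.04, MIR221 with -1.64, MIR181B1 with -1.41, RGS2 with -1.15, AK5 with -1.03, MIR222 with -0.95, FST with -0.86, MAGEC2 with -0.69 and GMPR with -0.47. With 2 arrays a group, each value rests on 4 arrays and on a spread shared with the other groups.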

How the results depend on the processing

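The scaling of the arrays decided how many genes were called in each direction. With equal array medians 4037 genes were higher and 9472 lower, at least 2-fold 260 and 1831, and after joint quantile normalization 6001 were higher, at least 2-fold 433, and 645 lower by as much. Calls in all 3 scalings, a rule added after seeing the data, numbered 7644, of which 3693 were higher, and 248 were higher at least 2-fold. The TET1 difference was 0.04 with equal medians (adjusted p = 0.80) and -0.06 after joint quantile normalization (adjusted p = 0.74). Leaving out 1 array at a time gave 12663 to 13883 genes called, 9073 to 9801 higher and 3590 to 4182 lower, 1142 to 1275 and 419 to 439 of them at least 2-fold, and a TET1 difference of 0.41 to 0.60, which lost its call without Tet1 replicate 1 (0.41, adjusted p = 0.061).

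Deviations of same-numbered control and Tet1 arrays from their group means correlated at 0.054 and 0.019. The deviations of the 2 Tet1 arrays mirror each other, so this check cannot show whether the replicates were paired. With the replicate block 9876 genes were higher and 4217 lower.

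Among the genes named, the sign turned in these cases. With equal medians they were AHR (-0.02), ANXA1 (-0.08), CAV1 (-0.26), CDH1 (-0.09), LUM (-0.45), MSN (-0.07), PGR (-0.20) and PTPRC (-0.16), and after joint quantile normalization TET1 (-0.06), CAV1 (-0.07), CDH1 (-0.06), LUM (-0.05) and PGR (-0.10). LUM also turned without Tet1 replicate 2 (-0.03) and without control replicate 1 or 2 (-0.01), and ranged up to 0.07 when 1 array was left out. Setting equal medians moves the difference of every gene down by the same amount, so small positive differences turn by construction. The cause of the other turns was not tested. Signal over background limits dim probe sets, whose differences are compressed.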
